A study of Mus musculus with 2 samples.

Results

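Open chromatin at 9 genes of the vessel wall was described in whole spleen of the mouse. The genes are Pecam1, Cdh5, Tie1, Erg, Lyve1, Flt4, Emcn, Kdr and Stab2. They were given as a list and located in the GENCODE vM21 annotation of mm10, among 21755 protein-coding genes on the autosomes and the X chromosome. The data are DNase-seq, in which the nuclease DNase I cuts accessible DNA in isolated nuclei and the cuts are sequenced. There was 1 group of 2 libraries, biological replicates 1 and 2, each from the spleen of a female of the B6CASTF1/J strain at an age of 36 days. That strain is the first cross of C57BL/6 with CAST. Both libraries carry the same strain, sex, age and tissue, with no treatment in the labels and no other group, so no difference between conditions was tested. The labels describe differently numbered females but attach the same donor entry to both, so the spread between the libraries may be partly technical. The nuclei came from whole tissue, so a small share of endothelial nuclei and little cutting per endothelial nucleus cannot be told apart, and neither can the alleles of the hybrid in these files.

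Endothelial cells line blood and lymph vessels, and in the spleen they also form the sinuses through which blood filters back into the veins. Vascular endothelial growth factors bind the receptor kinases Kdr and Flt4, Tie1 works beside the angiopoietin receptor Tek, and Cdh5 and Pecam1 hold neighbouring cells together at their junctions. Erg is a transcription factor of the ETS family that keeps endothelial genes active, Lyve1 and Stab2 bind hyaluronan on lymphatic and sinusoidal endothelium, and Emcn is a mucin-like glycoprotein of capillaries and veins. Pecam1 is also made by platelets and several kinds of leukocyte, and Erg also by blood stem cells and megakaryocytes.

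Replicate 1 had 42454 peaks in the shorter, more stringent of its deposited lists and replicate 2 had 60683, with 61285 and 89476 in the longer lists. Read depth is unknown. Signal, the deposited value of a peak, served to rank peaks within 1 library, and a percentile below is the percentage of peaks in the same list with a lower signal. Because replicate 2 lists more weak peaks, percentiles of the libraries are set side by side and not subtracted. Unless given per library, the position and centre of a region are those of its peaks merged over the libraries. A false discovery rate (FDR) per run of bases comes from the deposited cut rate track, which lists only runs below 0.05. For orientation, peaks stood in both libraries at the promoters of 10 of 10 B cell genes and of 0 of 10 hepatocyte genes. Over all protein-coding genes the share was 53.9% in replicate 1 and 57.4% in replicate 2. These lists were chosen with earlier results of these data known, so the counts are no independent check of the tissue.

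The sequences that carry the main findings come from the mm10 reference. Each is written 5′ to 3′ on the strand of its gene, with the bases inside footprints of replicate 2 in capitals. Footprints are deposited short stretches protected from cutting, all called at an FDR of 0.01. The first pair are the promoter peaks of the 2 genes that had one in both libraries, Kdr (chr5:75978473-75978721, minus strand, 249 bases, upstream of the start site) and Pecam1 (chr11:106750621-106750760, minus strand, 140 bases, across the upstream-most start site).
Kdr promoter: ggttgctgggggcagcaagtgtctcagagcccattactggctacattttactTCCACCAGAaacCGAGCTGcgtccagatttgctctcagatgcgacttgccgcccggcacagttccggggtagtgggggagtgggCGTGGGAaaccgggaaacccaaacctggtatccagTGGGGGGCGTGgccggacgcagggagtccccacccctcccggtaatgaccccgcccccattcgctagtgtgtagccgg
Pecam1 promoter: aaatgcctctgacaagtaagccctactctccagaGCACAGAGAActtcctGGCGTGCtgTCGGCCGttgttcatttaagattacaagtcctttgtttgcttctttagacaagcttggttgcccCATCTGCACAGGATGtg
The next pair are the strongest Pecam1 peak of replicate 2 (chr11:106669821-106670040, minus strand, intron 15) and the Pecam1 intron peak with the highest signal in replicate 1 (chr11:106665441-106665620, minus strand, intron 15).
Pecam1 intron, first: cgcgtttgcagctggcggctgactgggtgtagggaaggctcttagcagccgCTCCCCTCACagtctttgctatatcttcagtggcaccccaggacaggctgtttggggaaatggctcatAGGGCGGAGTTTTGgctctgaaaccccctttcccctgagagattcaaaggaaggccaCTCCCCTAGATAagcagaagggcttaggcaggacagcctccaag
Pecam1 intron, second: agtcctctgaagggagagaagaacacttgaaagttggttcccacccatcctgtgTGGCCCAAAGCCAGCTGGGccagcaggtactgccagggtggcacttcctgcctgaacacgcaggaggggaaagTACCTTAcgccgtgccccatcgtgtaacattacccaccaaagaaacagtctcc
The following 3 surround Cdh5, whose promoter had no peak in the shorter lists: a peak upstream of the start site (chr8:104099481-104099640, plus strand), one in intron 1 (chr8:104110841-104111080, plus strand) and one in intron 4 (chr8:104127261-104127460, plus strand).
Cdh5 upstream: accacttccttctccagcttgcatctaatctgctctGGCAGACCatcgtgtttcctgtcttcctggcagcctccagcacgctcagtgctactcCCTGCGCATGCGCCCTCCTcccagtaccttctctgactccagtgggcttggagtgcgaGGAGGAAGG
Cdh5 intron 1: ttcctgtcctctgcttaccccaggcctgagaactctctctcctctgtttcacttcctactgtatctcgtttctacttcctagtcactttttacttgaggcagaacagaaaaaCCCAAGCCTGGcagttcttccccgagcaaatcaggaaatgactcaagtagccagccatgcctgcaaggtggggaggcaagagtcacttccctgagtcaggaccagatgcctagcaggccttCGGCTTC
Cdh5 intron 4: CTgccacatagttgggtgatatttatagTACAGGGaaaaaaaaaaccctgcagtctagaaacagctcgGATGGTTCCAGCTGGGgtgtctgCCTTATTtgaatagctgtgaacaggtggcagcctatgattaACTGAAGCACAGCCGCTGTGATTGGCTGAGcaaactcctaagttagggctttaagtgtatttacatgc
The last pair are the one Erg region found in both libraries (chr16:95430021-95430200, minus strand, intron 3) and the Stab2 region with the highest signal (chr10:86933241-86933420, minus strand, centred in coding exon 25).
Erg intron 3: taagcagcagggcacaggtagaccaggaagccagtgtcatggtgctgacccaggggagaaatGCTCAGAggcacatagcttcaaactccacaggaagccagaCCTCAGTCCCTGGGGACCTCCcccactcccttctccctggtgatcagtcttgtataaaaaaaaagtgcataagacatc
Stab2 exon 25: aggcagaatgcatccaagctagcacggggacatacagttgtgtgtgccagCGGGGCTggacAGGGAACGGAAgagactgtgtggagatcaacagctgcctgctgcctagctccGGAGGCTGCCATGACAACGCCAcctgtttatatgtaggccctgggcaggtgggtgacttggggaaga

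Of the 9 endothelial genes, 2 carried a peak at the promoter in replicate 1 and 4 carried one in replicate 2, a mean of 3 ± 1.41 (SD, n = 2). Pecam1 and Kdr had one in both libraries, and Tie1 and Erg in replicate 2 only. With an equal number of peaks taken from each library, replicate 2 kept the promoter peak of Pecam1 alone, 1 gene in place of 4, and the call of Kdr in both libraries was lost. Cdh5, Lyve1, Flt4, Emcn and Stab2 had none in either. A promoter is the stretch within 1 kb of any annotated start site, and a peak counts if it overlaps that stretch by at least 1 base. Over all protein-coding genes the share with such a peak was 53.9% in replicate 1 and 57.4% in replicate 2, against 22.2% and 44.4% of the endothelial genes. Promoters of 7 of the 9 are poor in CpG dinucleotides, with an observed over expected ratio below 0.5 within 500 bases of the start, and among all 10009 CpG-poor genes the share was 21.3% and 25.5%. Of these 7 genes, 1 and 3 had a promoter peak, and of the 2 CpG-rich genes, Kdr and Flt4, 1 and 1 had one. Read against genes of the same promoter class, the counts of replicate 1 are near the background, and those of replicate 2 rest on Tie1 and Erg, whose promoter peaks were among the weakest of the library. With the longer lists this held for 2 and 5 of 9, against 57.9% and 62.4% of all genes.

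Promoter peaks of the endothelial genes were lower in signal, by median, than promoter peaks of all genes. Their median percentile was 36.2 over 3 peaks in replicate 1 and 21.3 over 7 peaks in replicate 2, whereas the median over all promoter peaks was 74.4 and 76.1. That background was not split by CpG class, whereas 7 of the 9 endothelial promoters are CpG-poor. In replicate 2, 4 of the 7 peaks were those of Pecam1. Among them, those at percentiles 21.3, the median itself, and 45.9 were nearer to the start site of the neighbouring gene Milr1. Peaks of the endothelial loci away from any promoter had median percentiles of 54.0 over 17 peaks and 50.5 over 26, against 38.7 and 41.4 for all such peaks. Pecam1 and Cdh5 supplied many of these peaks, including the strongest. In replicate 1, those of Erg, Kdr and Stab2 lay at or below percentile 29.8, and that of Flt4 at 54.0. In replicate 2, those of Erg, Kdr, Stab2 and Flt4 ranged from 8.39 to 58.9. By median, the peaks away from promoters thus ranked above those at the genes' own promoters in both libraries, while over all peaks the order was the opposite.

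**Figure D1:**
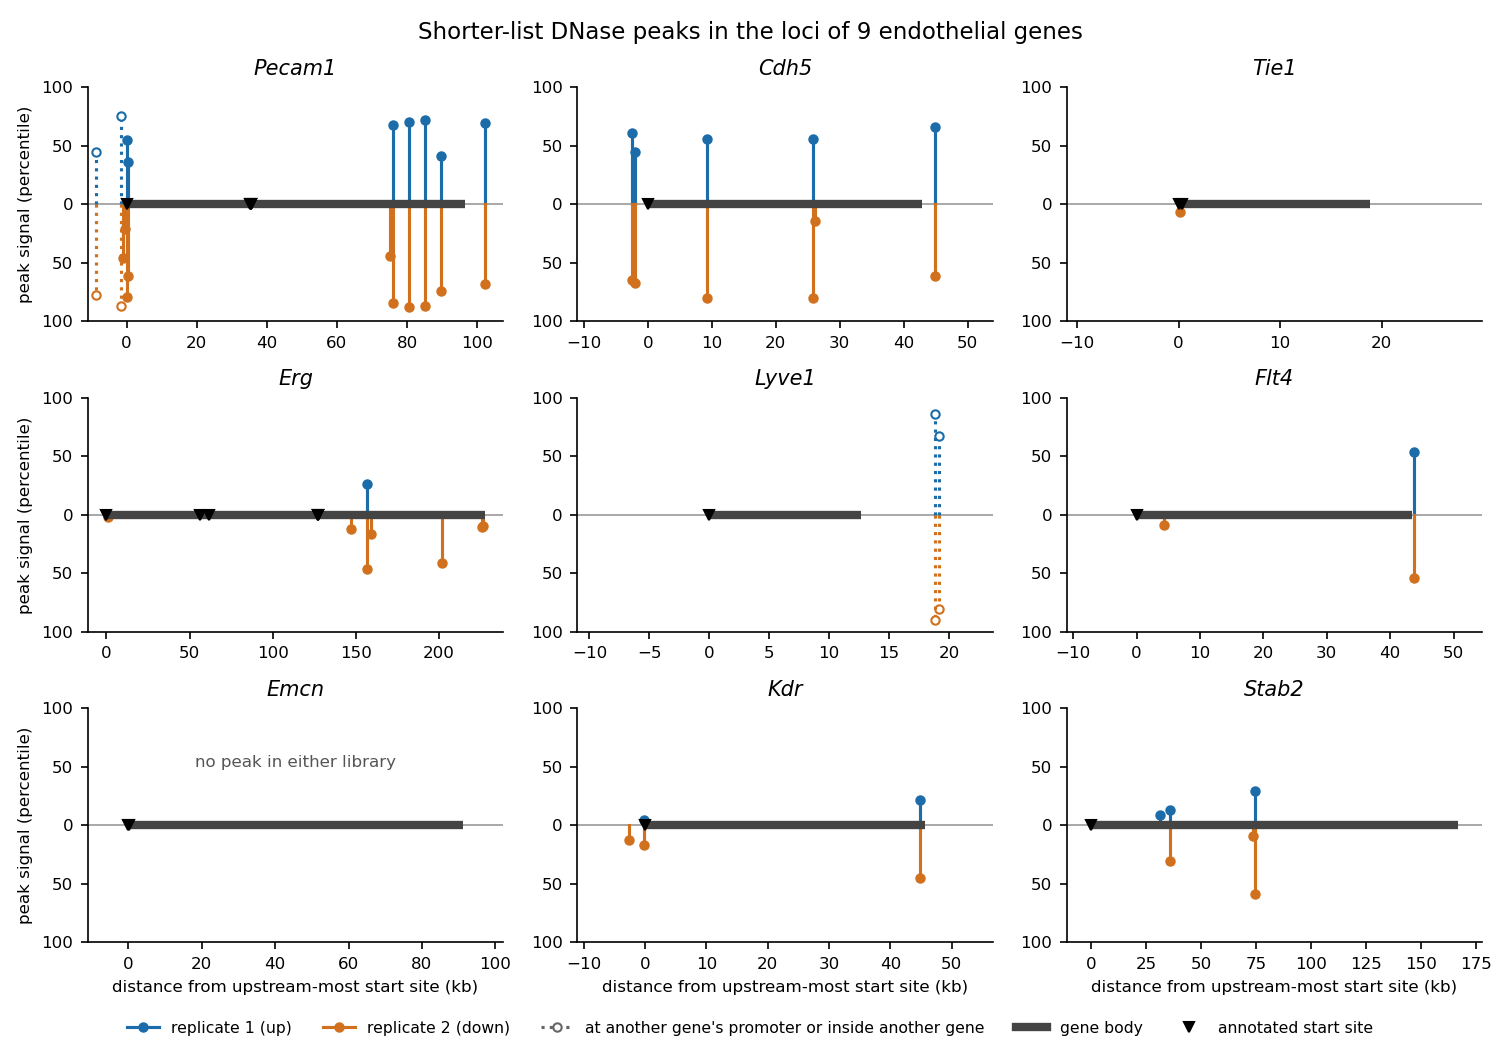
Peaks of the shorter lists in each of the 9 loci, by distance from the upstream-most start site in kb on the x axis and by percentile of signal within the library on the y axis, with replicate 1 drawn upwards and replicate 2 downwards. Pecam1 and Cdh5 hold most of the strong regions, Emcn holds no peak, and the Lyve1 peaks, drawn open, lie at the promoter of Rnf141.

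Among the junction proteins, Pecam1 (chr11:106654217-106750628, minus strand) had the most peaks, 9 in replicate 1 and 12 in replicate 2, and its promoter was the strongest of the 9. The peak at its upstream-most start site, centred 77 bases downstream of it in replicate 1 and 63 bases upstream in replicate 2, had a signal of 1.58 in replicate 1 and 3.24 in replicate 2, at percentiles 55.0 and 79.2. A second peak, centred 477 bases downstream of the start in replicate 1 and 467 in replicate 2, had signals of 1.06 and 1.52. The lowest FDR at this promoter lay 30 bases upstream of the start in replicate 1 and 29 bases upstream in replicate 2, at 8.68e-11 and 9.76e-33. The annotation also gives Pecam1 4 internal start sites, between positions 106715259 and 106715394, and none of them had a peak or a listed run within 1 kb in either library. Open chromatin at Pecam1 was thus detected at the upstream-most of its 5 start sites alone.

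The Pecam1 gene body carried stronger peaks than its promoter, grouped in introns 14 and 15 near the 3′ end. The intron 15 region at chr11:106665441-106665620 had signals of 2.73 and 5.24, and the one at chr11:106669821-106670060 had 2.51 and 5.54. An intron 14 region at chr11:106674661-106674880 had 2.29 and 4.46. All 3 exceeded the promoter peak within the same library, in both libraries. Another intron region, chr11:106660741-106661000, had 1.16 and 2.47, below the promoter in each. These regions lie 75857 to 89757 bases from the upstream-most start site and 40488 to 54388 bases from the nearest internal one.

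Pecam1 shares its promoter stretch with Milr1, an immunoglobulin-like receptor of mast cells and other myeloid cells that is read in the other direction. The start sites of the genes lie 598 bases apart. Of the Pecam1 promoter peaks of replicate 2, 2 were nearer to the Milr1 start, at signals of 0.63 and 1.04, and neither was in the shorter list of replicate 1. A region at the promoter of Milr1 alone, chr11:106752161-106752380, had signals of 3.15 and 5.36, the highest in the Pecam1 locus in replicate 1 and second in replicate 2. Another inside Milr1 had 1.26 and 2.98. Which of the genes the shared stretch serves was not tested.

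Cdh5 (chr8:104101625-104144511, plus strand), the cadherin of endothelial junctions, had 5 and 6 peaks in its locus and none at its promoter. Upstream of the gene, a region centred 2484 bases before the start site had signals of 1.88 and 1.73, and one 2074 bases before it had 1.26 and 1.90. In the gene, the intron 1 region 9316 bases downstream had 1.61 and 3.40, and the intron 4 region 25746 bases downstream had 1.64 and 3.43. A region in the downstream flank, chr8:104146401-104146600, had 2.18 and 1.55. All 5 were in both libraries. Within the locus the order of signals differed: the downstream region was the strongest of the 5 in replicate 1 and the weakest in replicate 2.

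At the Cdh5 start site itself only a faint trace was listed. Replicate 2 had a run of 105 bases with a lowest FDR of 0.0113, 39 bases upstream of the start, which made a peak in the longer list only. Replicate 1 had no listed run within 1 kb. It was the only one of the promoters without a peak to hold a run, 0 of 7 in replicate 1 and 1 of 5 in replicate 2. Over all protein-coding genes without a promoter peak, 10.9% and 14.3% held one.

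Among the receptor kinases, Kdr (chr5:75932827-75978458, minus strand) had a weak promoter peak in both libraries. It was centred 139 bases upstream of the start, with signals of 0.538 and 0.574 at percentiles 4.87 and 16.6, and lowest FDR values of 2.77e-05 and 1.89e-06. The peak printed above is rich in CpG, with 15 CpG dinucleotides in 249 bases. A stronger region lay in the 3′ UTR, in the last of 30 exons, with signals of 0.802 and 1.00. Another, 2644 bases upstream of the start, was in replicate 2 only at 0.528. All 3 had a longer-list peak in both libraries.

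Flt4 (chr11:49609263-49652739, plus strand), the growth factor receptor of lymphatic endothelium, had no peak and no listed run within 2000 bases of its start site in either library, although its promoter had the highest CpG ratio of the 9, 0.805. Its strongest region, chr11:49652881-49653040, lay just past its end, nearest to the start site of Scgb3a1, with signals of 1.54 and 1.27 at percentiles 54.0 and 54.3. A region of 30 bases in intron 1 was in replicate 2 only, at a signal of 0.477.

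Tie1 (chr4:118471191-118490061, minus strand), the orphan receptor of the angiopoietin pathway, had 1 peak in all. It lay over the first exon, centred 99 bases into the gene, in replicate 2 only, with a signal of 0.446 at percentile 6.10 and a lowest FDR of 8.64e-06. In replicate 1 no run was listed within 2000 bases of its start.

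Erg (chr16:95359169-95586593, minus strand) had 1 peak in replicate 1 and 7 in replicate 2, the widest gap of the 9 genes. The shared region, in intron 3, had signals of 0.865 and 1.05 at percentiles 26.1 and 46.6. The 6 others were in replicate 2 only, with signals of 0.354 to 0.933. The strongest of them, chr16:95384661-95384940 in intron 5, also had a peak in the longer list of replicate 1, with a lowest FDR of 0.0111 there against 3.95e-15 in replicate 2. A further 2 lay in the 3′ UTR. The promoter peak, centred 939 bases downstream of the upstream-most start site, was the weakest of the 36 peaks of replicate 2, at percentile 1.66, and no listed run lay within 500 bases of that start. None of the other 5 start sites of Erg had a listed run within 1 kb in either library. In the longer lists Erg had 5 and 13 peaks.

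**Figure D2:**
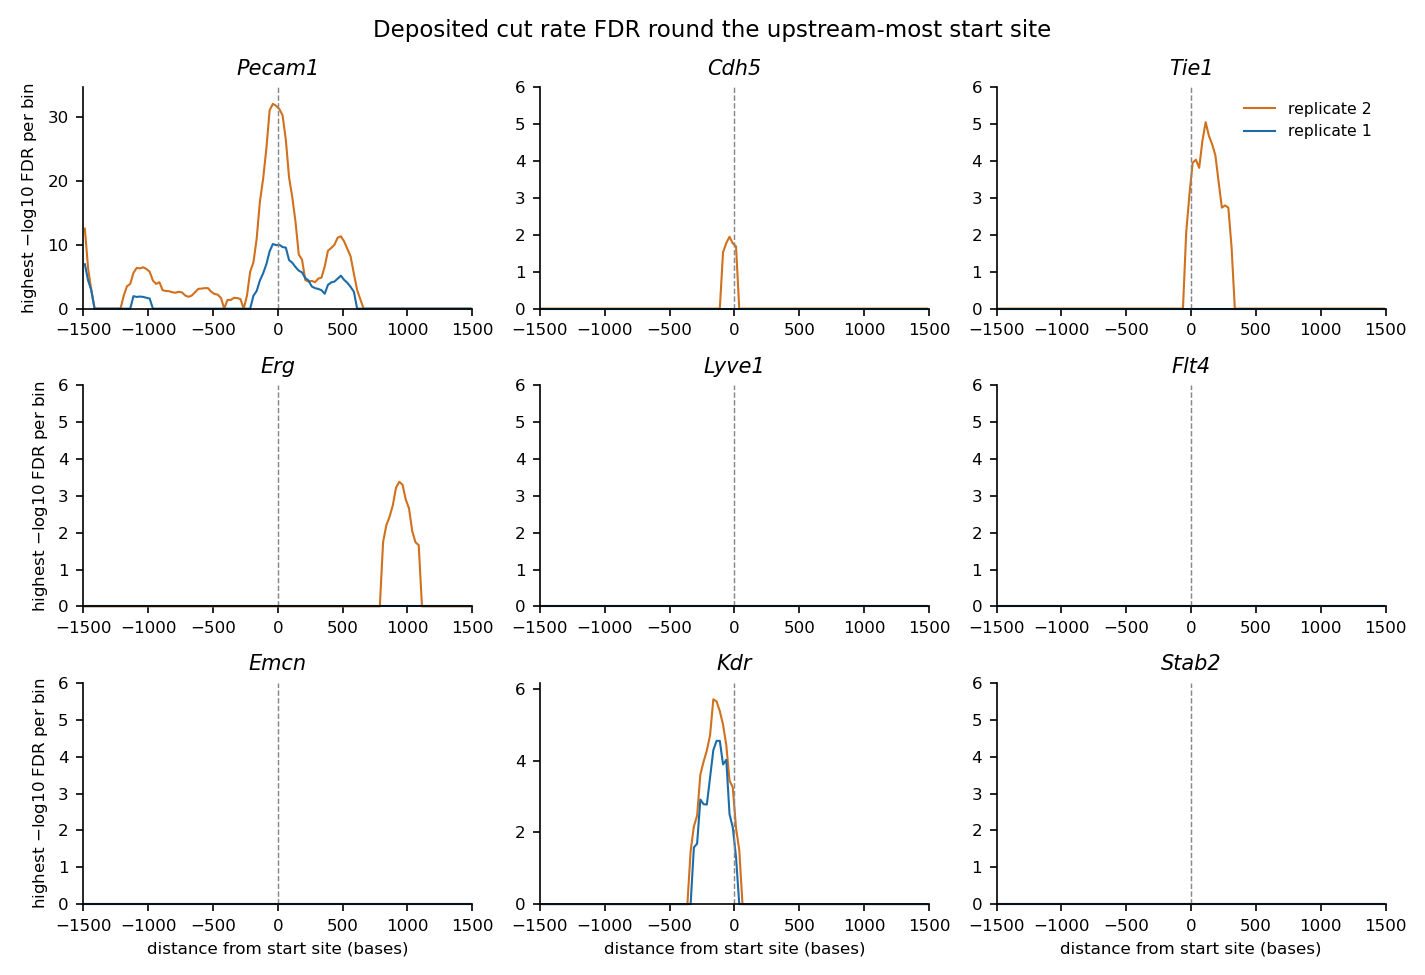
Highest −log10 FDR of the deposited cut rate track per bin of 25 bases on the y axis, against distance from the upstream-most start site of each gene in bases on the x axis, with replicate 1 in blue and replicate 2 in orange and unlisted bases at 0. Pecam1 and Kdr show a run over or just upstream of the start in both libraries, Tie1, Cdh5 and Erg show one in replicate 2 only, and the other 4 genes show none.

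No open region at a start site was listed for Lyve1, Emcn or Stab2 in either library. Lyve1 (chr7:110850607-110863239, minus strand) had 2 peaks in each library, both at the promoter of the neighbouring Rnf141, with signals of 2.31 and 5.30 in replicate 1 and 3.41 and 6.52 in replicate 2. The start site of Rnf141 lies 18782 bases from that of Lyve1, and without peaks at promoters of other genes the Lyve1 locus had 0. Emcn (chr3:137341067-137432185, plus strand) had 0 peaks in both lists of both libraries. Neither gene had a listed run within 2000 bases of a start site.

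Stab2 (chr10:86841198-87008025, minus strand), the scavenger receptor of sinusoidal endothelium, had 3 peaks in each library and no listed run within 2000 bases of its start. The region centred in coding exon 25 had signals of 0.928 and 1.44, and the one in intron 6 had 0.665 and 0.753. The remaining peak differed between the libraries. In replicate 1 it lay in intron 5, at a signal of 0.601, and in replicate 2 it lay in intron 24, at 0.487. Neither had a counterpart in the longer list of the other library.

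Across the 9 loci, each the gene body with 10 kb on either side and a peak counted by its midpoint, there were 23 peaks in replicate 1 and 36 in replicate 2, 29.5 ± 9.19 (SD, n = 2). At least 1 peak lay in 7 and 8 loci, the shares over all genes being 70.4% and 73.4%. Per 10 kb of locus the median peak number was 0.161 and 0.315, against 0.345 and 0.438 over all protein-coding genes. Pecam1, with 0.773 and 1.03, Cdh5, with 0.795 and 0.954, and Lyve1, with 0.613 in each through the Rnf141 promoter, lay above the median of all genes in both libraries. Emcn, Tie1, Erg, Flt4 and Stab2 lay below it in both, and Kdr, with 0.305 and 0.457, lay below it in replicate 1 and above it in replicate 2.

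Merged over the libraries, the peaks made 37 regions, of which 22 were in both, 1 in replicate 1 only and 14 in replicate 2 only. By place, 16 were intronic, 7 at the gene's own promoter, 4 in exons, 3 in each flank, 3 at promoters of other genes and 1 inside another gene. The region's nearest start site was that of the endothelial gene itself for 27. Of the peaks of replicate 1, 22 of 23 (95.7%) were shared, and of those of replicate 2, 22 of 36 (61.1%), near the 93.8% and 65.7% over all peaks. Shared regions had a median percentile of 70.8 in replicate 2, and regions of replicate 2 only had 12.3. Of the 14 regions in replicate 2 only, 5 had a peak in the longer list of replicate 1.

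**Figure D3:**
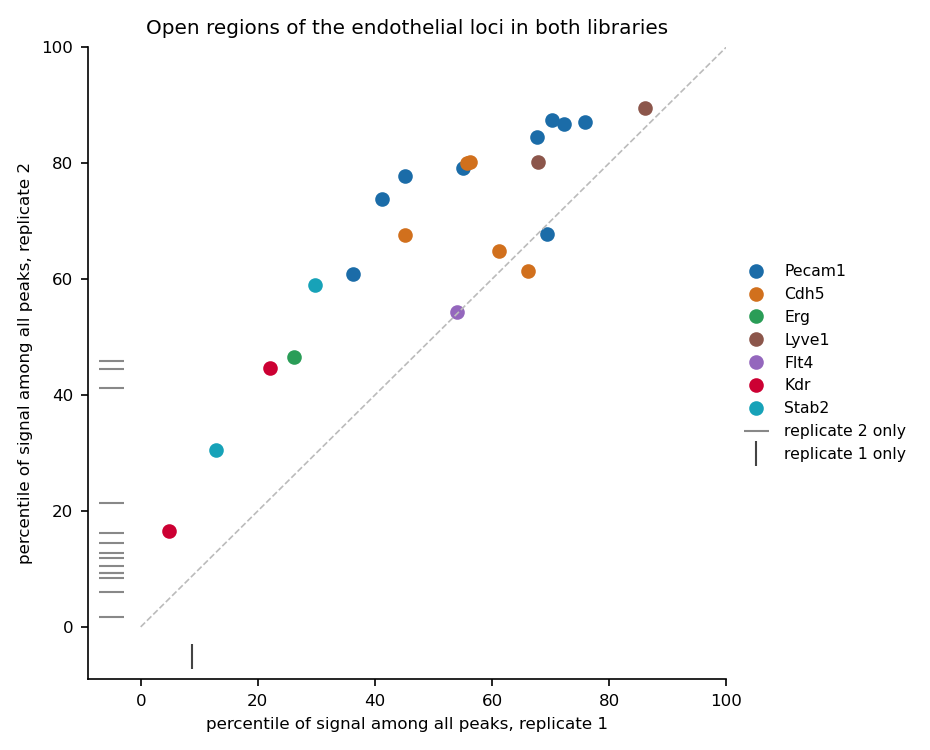
Percentile of signal in replicate 1 on the x axis and in replicate 2 on the y axis for the 22 regions found in both libraries, 1 point each and coloured by gene, with marks at the left edge for the 14 regions of replicate 2 only and at the lower edge for the 1 of replicate 1 only. The Kdr promoter region is lowest in both libraries, at 4.87 and 16.6, the stronger Lyve1 region, at the promoter of Rnf141, is highest, at 86.1 and 89.5, and most regions of replicate 2 only lie at the low end.

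Footprints lay inside the member peaks at the same density as elsewhere: 55 in replicate 1, or 2.39 per peak, and 98 in replicate 2, or 2.72 per peak, against 2.38 and 2.66 over all peaks. A footprint counted as shared if a footprint of the other library overlapped at least 50% of the shorter one. Of the 55, 29 (52.7%) were shared, and of the 98, 26 (26.5%), below the 68.6% and 40.9% over all footprints in peaks. The genes differed in this. Cdh5 shared 10 of 13 and 8 of 15, Pecam1 7 of 18 and 6 of 32, Erg 1 of 3 and 1 of 19, and Stab2 1 of 7 and 1 of 7. Most of the footprints of Pecam1, the gene with the most peaks, were therefore found in 1 library only.

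Sequence words of factors known in endothelium were searched on both strands in the 200 bases round each peak's midpoint. Matches are a description of letters and not binding sites. The ETS word AGGAAG was in 10 of 17 peaks away from promoters in replicate 1 and 12 of 26 in replicate 2, against 38.8% and 42.2% of all such peaks. The ETS word with a CpG, CGGAAG, was in 3 and 4, against 8.36% and 7.81%. The SOX words ACAATG and ACAAAG were in 2 and 3, against 21.1% and 21.3%, and the GATA word AGATAA in 2 and 3, against 7.86% and 9.60%. The E box CANCTG, the word of helix-loop-helix factors, was in 10 and 14, against 52.0% and 52.9%. The joined FOX and ETS word AAACAGGAA was in 0 and 1, the latter in Erg, against 2.22% and 2.52%. Over the whole regions AGGAAG occurred 20 times in 14 regions, and 1 of these matches touched a footprint in both libraries, in the Cdh5 upstream region printed above.

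In the window from 250 bases before to 50 after the start, the word AGGAAG was in 6 of the 9 promoters, Pecam1, Tie1, Lyve1, Flt4, Emcn and Stab2, against 34.8% of all protein-coding genes. Of these 6 genes, 4 lacked a peak at the promoter in both libraries. The word CGGAAG was in Tie1 alone, against 20.1% of all genes. The KLF word CCNCNCCC was in 4 of the 9, against 54.7% of all genes, and the RUNX word TGTGGTT was in 2, against 5.11%. The SOX words were in 5, against 25.8%, and the E box in 6, against 49.4%. The GATA word was in 1, against 10.1%, and the joined FOX and ETS word in 0, against 0.887%. The AP-1 word TGANTCA, the octamer ATGCAAAT and the CTCF words, CNAGGGGGC or alternatively CNAGGTGGC, were in 0, against 6.88%, 1.59% and 4.69%. Words this short are common in any sequence, and no more is read from them.

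A word of the insulator protein CTCF was seen in all 3 regions in the downstream flanks, which belong to Pecam1, Cdh5 and Flt4. The shortened words searched, AGGGGGC and its variant AGGTGGC with a further form AGAGGGC, were chosen after the sequences had been seen, and were present in 35.7% and 27.8% of all peaks away from promoters. In these 3 regions all 7 letters of the word lay inside a footprint in both libraries. The stretches are printed with the word in the middle, read forward, all on the plus strand of mm10 and with the footprints of replicate 2 in capitals, for Pecam1 (chr11:106648461-106648497), Cdh5 (chr8:104146481-104146517), Flt4 (chr11:49652922-49652958) and the intron 6 region of Stab2 (chr10:86972113-86972149), where the footprint was in replicate 2 only.
Pecam1 downstream flank: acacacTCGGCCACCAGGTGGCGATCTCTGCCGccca
Cdh5 downstream flank: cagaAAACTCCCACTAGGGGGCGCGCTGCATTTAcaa
Flt4 downstream flank: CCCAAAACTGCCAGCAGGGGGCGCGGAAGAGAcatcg
Stab2 intron 6: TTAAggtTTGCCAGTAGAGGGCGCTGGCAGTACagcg
Counted over peaks, 3 of 17 and 4 of 26 had such a word wholly inside a footprint, near the 21.4% and 17.5% over all peaks away from promoters. By order, among the 5 regions of Cdh5 and the 9 of Pecam1 found in both libraries, 0 and 3 were stronger than these in replicate 1. In replicate 2, 4 and 7 were stronger. The Cdh5 region 2484 bases upstream, which holds none of these exact words, also fell in order, with 1 stronger in replicate 1 and 3 in replicate 2. Looser forms of the words were not searched, and a link between a word and the order of regions was not tested. In the Cdh5 upstream region a footprint of both libraries covered the word GCGCATGC, also chosen after it had been seen, which the factor NRF1 is known to bind. It was in 0.912% and 0.797% of all peaks away from promoters.

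The wider endothelial programme was described with 7 lists of 62 further genes. Together 30 carried a peak at the promoter in replicate 1 (48.4%) and 38 did so in replicate 2 (61.3%), near the 53.9% and 57.4% over all genes, and 31 of the 62 were CpG-poor. Of those 31, 11 and 16 had a promoter peak, against the 21.3% and 25.5% over all CpG-poor genes. Of the 31 CpG-rich genes, 19 and 22 had one. No share over all CpG-rich genes was computed to set beside them, so the lists as a whole are not ranked against their promoter class.

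The lists differ in promoter class, so their counts are not compared with each other. Over all genes the share with a promoter peak was 53.9% and 57.4%. Ligands and coreceptors of the growth factor pathway, 1 of 7 genes being CpG-poor, had promoter peaks in 5 and 6. Vegfa and Vegfb, which encode ligands, and Nrp2, a coreceptor, had one in both libraries, and Flt1, the remaining receptor kinase of the family, in neither. Of 7 angiopoietin and TGF-beta pathway genes, 5 of them CpG-poor, 2 and 4 had one. Bmpr2 and Eng, receptors for bone morphogenetic proteins and their coreceptor, had one in both libraries. Tek, its ligand Angpt2 and Ptprb, a phosphatase that acts on Tek, had one in neither. Of 12 junction and surface genes, 9 of them CpG-poor, 2 and 5 had one. Egfl7 and Podxl had one in both, and Cd34, Esam and Icam2 were among the 7 with one in neither.

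Transcription factors were held in a pair of lists, whose difference was not tested. Beside these and the Notch list, 53.9% and 57.4% of all genes and 21.3% and 25.5% of CpG-poor genes had a promoter peak. Of 10 factors shared with blood cells, 9 and 9 had a promoter peak, Ets1, Ets2 and Lyl1 having the best-ranked ones, and Gata2 had none. Of 10 factors more restricted to endothelium, 5 and 5 had one, with Hey1, Hey2 and Bcl6b in both and Nr2f2, Prox1 and Sox17 among those in neither. The former list has 4 CpG-poor genes and the latter 2. Of 7 Notch pathway genes, 2 of them CpG-poor, 3 and 4 had one. Notch1, Jag1 and Efnb2 had one in both, and the arterial ligand Dll4, Jag2 and Notch4 in neither.

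Of 9 sinusoidal genes, 8 of them CpG-poor, 4 and 5 had a promoter peak. For this and the lists below, the share was 21.3% and 25.5% over all CpG-poor genes and 53.9% and 57.4% over all genes. Maf, a transcription factor, Fcgr2b, an inhibitory Fc receptor also made by B cells, Dnase1l3, a secreted nuclease, and Madcam1, the vessel addressin for homing lymphocytes, had one in both libraries. Clec4g, Gpr182 and Mrc1, the mannose receptor that macrophages also make, were among the 4 with none in either. For comparison, of 10 genes each, T cell genes had a promoter peak in 6 and 8, macrophage and monocyte genes in 3 and 7, and megakaryocyte and platelet genes in 1 and 2. These lists held 9, 8 and 9 CpG-poor genes. Median peak numbers per 10 kb of locus were 1.30 and 1.90 for B cell genes and 0.0845 and 0 for hepatocyte genes. The 9 endothelial genes had 0.161 and 0.315, below the 0.345 and 0.438 over all protein-coding genes. The part of leukocytes and platelets in the peaks at Pecam1 and Erg was not tested.

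**Figure D4:**
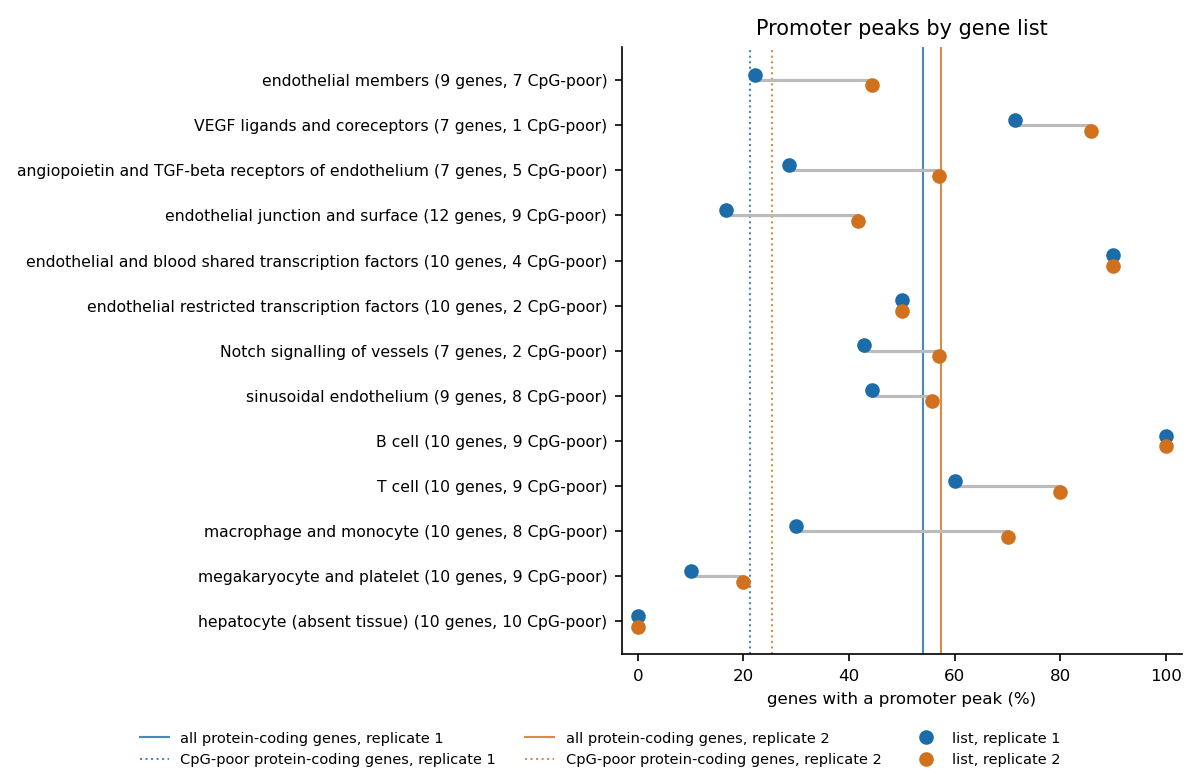
Share of genes with a promoter peak on the x axis, in percent, for the 9 endothelial genes and 12 further lists on the y axis, with replicate 1 in blue and replicate 2 in orange and vertical lines at the shares over all and over CpG-poor protein-coding genes. The endothelial genes lie at 22.2% and 44.4%, the hepatocyte genes at 0% in both libraries and the B cell genes at 100% in both.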

How the data were processed

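DNase-seq peaks, footprints and a cut rate track of 2 spleen libraries were analysed. Per the deposited readme, each file derives from the alignments of its own library on mm10, without pooling. The aligner and callers were not given in the sources used here. Peak lists, as deposited, give the authors' signal per peak, on a scale that is not stated, so depth is unknown. The deposited footprints carry a q-value threshold of 0.01 on every line. The deposited cut rate track gives an FDR (q-value) per run and lists only runs below 0.05. The shorter peak list of each library was used throughout, and the longer one as an alternative. Peak summits were not used, because their column is constant, and midpoints served instead.

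Coordinates were counted from 1. Genes came from GENCODE vM21 (basic), sequence from the GRCm38.p6 assembly, and 0 intervals reached past a chromosome end. Counting used Python 3.11.15, pandas 2.3.3, pysam 0.24.0 and bedtools 2.31.1, and was tested on simulated intervals. With 1 group of 2 libraries no test was run, and values are given per library, as mean ± SD and beside all protein-coding genes. The members, the lists and the words searched, except the shortened CTCF and NRF1 words, were fixed in writing, but chosen with earlier results of these data known. From each further list the text names at most 3 genes whose promoter held a peak in both libraries, by mean rank, and at most 3 whose promoter held none, in alphabetical order. Madcam1 was named after its values were seen. Neighbouring genes are named where they hold or are nearest to a counted peak. Alternatives varied the list, promoter width, flank, overlap and FDR, and left out each library.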

Additional observations from a re-analysis of the deposited data

How the results depend on the processing

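Of 47 alternative values, 34 stayed within 1.5 times the main value or within the spread of the libraries, and 13 moved. Values with 1 library left out are those of the other library alone, so they are no independent check against that spread. The number of endothelial genes with a promoter peak, 3 on average, was 1 with the strongest 21227 peaks of each library, Pecam1 alone, and 1.5 with an equal number of peaks per library, 2 in replicate 1 and 1 in replicate 2. At that equal number Tie1, Erg and Kdr had no promoter peak in replicate 2. The number of genes with a locus peak was 3.5 with the strongest peaks, against 7.5. The number of locus peaks, 29.5, was 13 with the strongest peaks, 17.5 without the flanks and 64.5 with flanks of 50 kb, and 26.5 without peaks at promoters of other genes, an alternative chosen after seeing the data. The median per 10 kb, 0.238, was 0.364 with the longer lists and 0 with the strongest peaks. The number of promoters without a peak that held a listed run, 0.5, was 0 at an FDR of at most 0.01 or 0.001. It was also 0 with promoters of 2000 bases to either side, because an upstream Cdh5 peak then counted as a promoter peak. At that width 3 genes in replicate 1 and 5 in replicate 2 had a promoter peak.

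With 1 library left out the values ranged from 2 to 4 promoter genes, 7 to 8 locus genes, 23 to 36 locus peaks, 0.161 to 0.315 peaks per 10 kb, 55 to 98 footprints and 0 to 1 promoters with a run. The share of shared peaks needs both libraries and has no such value. No paired analysis was possible because there is 1 group and no comparison between groups. Read depth is unknown, so a missing peak may lie below the detection of either library.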
